A study of Mus musculus with 20 samples.

Results

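The proteasome subunit genes were 45 of the 10625 genes measured in mouse fibroblasts with and without heat shock factor 1 (HSF1), the main transcription factor of the heat shock response. They were taken by name: the symbol in the platform's probe table starts with Psma, Psmb, Psmc, Psmd, Psme, Psmf or Psmg followed by a digit, and at least 1 probe lists that gene alone. Of the 45, 43 encode subunits, activators or assembly factors of the proteasome, and the other 2, Psmc3ip and Psme3ip1, are named after proteins they bind. The 43 were 7 genes of the alpha ring, 7 of the beta ring, 4 inducible beta subunits, 5 of the ATPase ring, 10 non-ATPase subunits of the cap, 3 assembly factors of the cap, 3 activators and 4 assembly factors of the core. All 45 genes passed the filter on missing values, with 123 of their 127 probes. Of these genes 8 had a single probe, and none had more than 7. Psma8, Psmc6, Psmd13, Psme4 and Psmf1 were not analysed here.

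The study used 20 two-colour arrays of fibroblasts labelled HSF1 +/+ (called WT) and HSF1 -/- (called KO). Each sample, in Cy5, was hybridised against the same Cy3 reference, mRNA pooled from unheated fibroblasts and from fibroblasts after 1 h of heat. Both genotypes have 3 arrays without heat (0 h) and a single array at each of the times 0.5, 1, 2, 3, 4, 6 and 8 h of heat shock. The arrays at 0.5, 1 and 2 h form an early window (n = 3 per genotype), and those at 3, 4, 6 and 8 h a late window (n = 4 per genotype). The times in a window are not replicates, so their spread includes change over time. Whether the 0 h arrays stem from separate cultures is not stated. The p-values thus measure no more than the spread between these arrays, and genotype cannot be told apart from any other difference between the cell lines.

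Values are log ratios of sample to pool, read here as log2, centred on each array's median and given relative to the mean of the 3 WT arrays at 0 h. A ratio to a pool gives no level, so genes cannot be ranked by abundance. The arrays held 39037 to 42220 values each, and their number limits the precision. Hspa1a, the inducible HSP70 chaperone, checked the labels: it rose by 5.83 ± 0.75 (SE, log2) in the WT late window (limma, adjusted p = 0.00184), while its change in KO was -0.01 ± 0.75 (adjusted p = 0.999). Dnajb1 rose by 2.11 ± 0.25 (adjusted p = 0.00121) and Hsph1 by 2.32 ± 0.37 (adjusted p = 0.00269) in the same WT window. Of 8 fibroblast markers measured, 1 was lower and 2 were higher in KO at 0 h, and of 5 macrophage and 5 epithelial markers 1 and 0 were lower and none was higher. A mean over many cells cannot tell fewer cells of a type from less RNA per cell.

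The proteasome degrades proteins that carry ubiquitin. Its core is a barrel of alpha rings, which form the gate, and beta rings, which hold the cutting sites made by Psmb5, Psmb6 and Psmb7. The cap sits on the barrel: its ATPase ring (Psmc genes) unfolds substrates and its non-ATPase subunits (Psmd genes) bind ubiquitin and remove it. The inducible beta subunits Psmb8, Psmb9 and Psmb10 replace the standard ones under interferon, and Psmb11, the thymus form, is grouped with them here. Other activators (Psme genes) can take the place of the cap, and dedicated chaperones build both core and cap.

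The promoters of 3 members are shown because their transcripts were lower in KO under heat and because they differ in the motifs they hold. They are the 250 bases before the annotated start in the RefSeq table for GRCm38.p6, on the gene's strand, with matches in capitals. The heat shock element was searched as GAANNTTC or TTCNNGAA, each its own reverse complement, and the antioxidant response element as TGACNNNGC or, on the other strand, GCNNNGTCA. Psmd8 (chr7:29180674-29180923, minus strand) held neither, Psmb5 (chr14:54617996-54618245, minus strand) held GAACATTC starting 242 bases and TGACGTCGC starting 47 bases before its start, and Psme3 (chr11:101315963-101316212, plus strand) held TTCCAGAA starting 241 bases before its start.
Psmd8: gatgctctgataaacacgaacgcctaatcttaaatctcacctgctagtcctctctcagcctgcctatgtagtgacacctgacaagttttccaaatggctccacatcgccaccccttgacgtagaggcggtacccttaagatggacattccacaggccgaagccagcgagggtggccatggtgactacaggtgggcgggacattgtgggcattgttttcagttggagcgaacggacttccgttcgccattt
Psmb5: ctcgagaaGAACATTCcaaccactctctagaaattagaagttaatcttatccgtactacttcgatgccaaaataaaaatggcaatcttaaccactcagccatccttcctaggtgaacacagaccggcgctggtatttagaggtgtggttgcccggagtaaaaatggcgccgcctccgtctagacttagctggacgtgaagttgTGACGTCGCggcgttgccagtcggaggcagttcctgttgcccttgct
Psme3: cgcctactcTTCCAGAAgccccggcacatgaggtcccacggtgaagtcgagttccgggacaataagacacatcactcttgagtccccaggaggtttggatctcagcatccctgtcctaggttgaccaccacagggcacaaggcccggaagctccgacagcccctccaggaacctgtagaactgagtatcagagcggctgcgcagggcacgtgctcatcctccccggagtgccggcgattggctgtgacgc

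Over windows from 250 bases before to 50 after the start, 38 of the 45 members were in the table. A heat shock element was found in 4 of the 38 (10.5%), Psmb5, Psmb9, Psmd4 and Psme3, against 17.0% of 27025 genes with a promoter in the table. An antioxidant response element was found in 4 (10.5%), Psmb5, Psmb6, Psmd9 and Psmd12, against 13.99%. A CCAAT box (CCAAT or ATTGG) was found in 16 (42.1%), against 41.1%. A match is a description of these letters and not a measured binding site.

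Before heat, core and cap subunit genes had lower values in KO than in WT fibroblasts. All 29 measured subunit genes (14 of the core and 15 of the cap, without inducible subunits and assembly factors) had differences below 0. They ran from -0.95 to -0.01 with a median of -0.52, while the median of all genes tested was 0.05. The cap subunits Psmc6 and Psmd13 are not among them. In the limma test across all genes 7 of the 45 members were lower and 0 were higher at an adjusted p under 0.05, against 3.6% and 3.04% of all genes. At an unadjusted p under 0.05, 20 of the 45 differed, against 20.8% of all genes. In 18 of the 45 every KO array lay below every WT array, and in 3 every KO array lay above, against 11.9% and 13.2% of all genes.

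In the alpha ring, Psma6 and Psma7 were lower in KO at 0 h. Psma7 stood at 0.16, -0.23 and 0.07 on the WT arrays and at -0.50, -0.83 and -0.86 on the KO arrays, a difference of -0.73 ± 0.20 (limma, adjusted p = 0.0335). Psma6, read by 1 probe, stood between -0.03 and 0.04 in WT and at -0.49, -0.76 and -0.92 in KO (-0.72 ± 0.17, adjusted p = 0.0168). The genotypes did not overlap for either gene, and the first KO array was the nearest to WT in both. The other 5 alpha subunits had differences of -0.64 to -0.34 and did not pass, led by Psma1 at -0.64 ± 0.22 (adjusted p = 0.0973).

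In the beta ring, 3 of 7 genes passed at 0 h: Psmb5, the chymotrypsin-like cutting subunit, and the non-catalytic Psmb1 and Psmb2. Psmb5 stood at 0.15, -0.0030 and -0.14 on the WT arrays and at -0.61, -1.10 and -0.92 on the KO arrays, 1.83-fold lower (-0.87 ± 0.23, adjusted p = 0.0311). Psmb2 stood at -0.10, -0.10 and 0.20 in WT and at -0.64, -0.92 and -1.05 in KO (-0.87 ± 0.20, adjusted p = 0.0148). Psmb1 stood at 0.03, -0.05 and 0.03 in WT and at -0.36, -0.88 and -0.95 in KO (-0.73 ± 0.19, adjusted p = 0.0280). All probes of these genes pointed down in KO: 3 of 3 for Psmb5, 5 of 5 for Psmb2 and 3 of 3 for Psmb1. The other cutting subunits did not pass, with -0.04 ± 0.32 for the caspase-like Psmb6 (adjusted p = 0.964) and -0.38 ± 0.24 for the trypsin-like Psmb7 (adjusted p = 0.407). Psmb3, a non-catalytic subunit with 1 probe, had the second lowest difference of all members, -0.89 ± 0.39, but its WT arrays spread from -0.38 to 0.56 and it did not pass (adjusted p = 0.201).

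In the cap, Psmd8 had the lowest difference of all 45 members at 0 h. This non-ATPase subunit of the lid stood at -0.0019, -0.18 and 0.18 on the WT arrays and at -0.84, -1.17 and -0.85 on the KO arrays, 1.94-fold lower (-0.95 ± 0.20, limma, adjusted p = 0.00652). Its 6 probes each pointed down in KO, by differences from -1.24 to -0.28. Psmd6, another lid subunit, stood between -0.06 and 0.10 in WT and at -0.60, -0.73 and -0.70 in KO (-0.68 ± 0.19, adjusted p = 0.0374). The arrays of the genotypes did not overlap for either gene. None of the 5 ATPase ring genes passed, with differences from -0.32 to -0.01. The probes of some cap genes disagreed: those of Psmd3 ran from -1.90 to 0.30, those of Psmd12 from -1.91 to 0.40 and those of Psmc5, an ATPase, from -0.57 to 0.69.

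**Figure D1:**
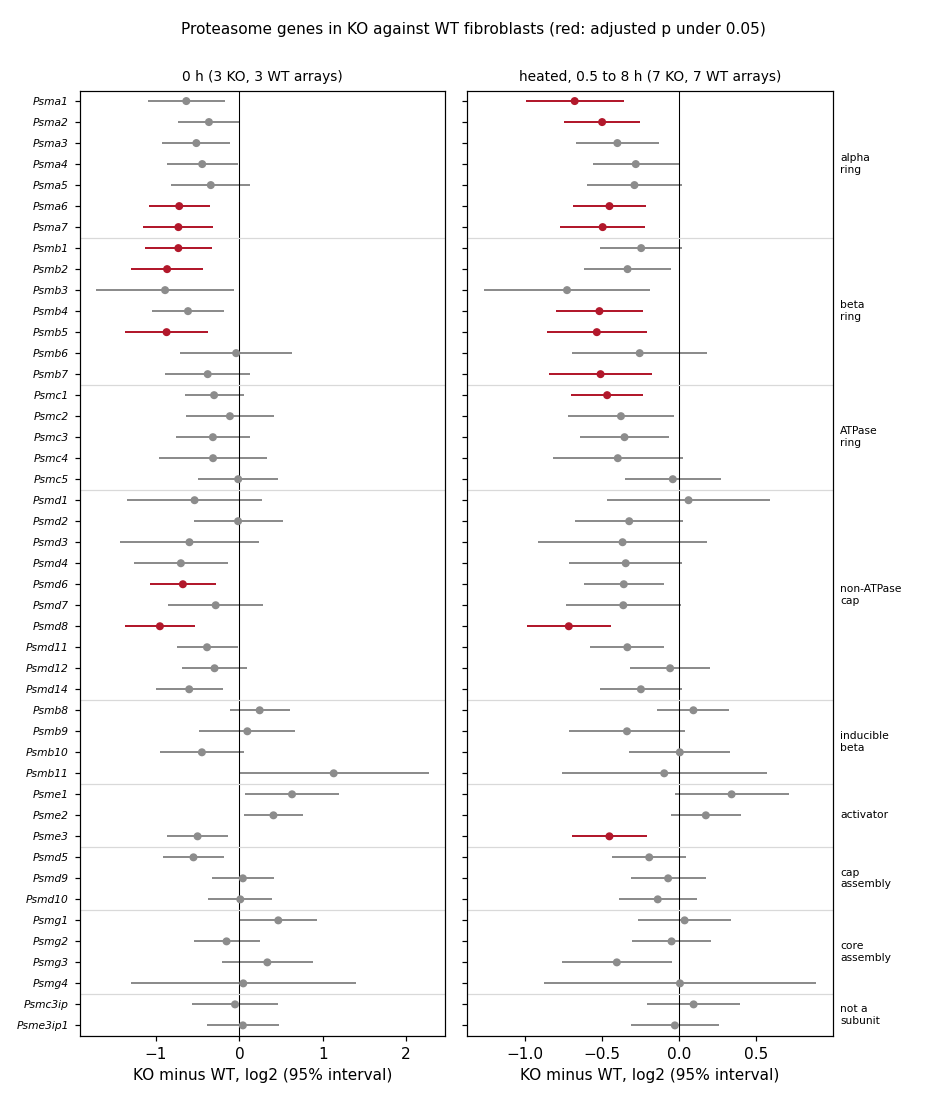
Each point is the log2 difference KO minus WT of 1 gene, with its 95% interval from the limma fit, at 0 h (left) and over the heated arrays (right, on its own scale), grouped by role. Red points have an adjusted p under 0.05. All 29 measured subunit genes of core and cap (without inducible subunits and assembly factors) lie left of 0 at 0 h, and every red point in both panels lies left of 0.

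The 0 h calls rest on the spread of all groups. Fitted by limma on the 6 arrays at 0 h alone, 0 members and 109 of all genes passed, and Psmd8 had an adjusted p of 0.0769. Quantile normalization left 2 lower (Psmd8 and Psma7) and 1 higher (Psmg1). Without the third KO array 1 member passed, without the second KO array 2, and without the first WT array 3. For fits with arrays left out, here and below, the calls over all genes are not given. Such counts thus cannot be read as a trait of the members. Psmd8 passed without any single one of the 6 arrays (adjusted p from 0.00917 to 0.0377), while Psmd6 passed in none of these 6 fits and the other 5 genes lost their calls without 2 to 4 of the 6. Transcripts of 66 cytosolic ribosomal proteins were also lower in KO at 0 h, with a median of -1.0002 and 55 past the threshold, as were 3 of 8 chaperonin subunits (median -0.62). Their part in the proteasome result was not tested.

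Over the heated arrays, 10 members were lower in KO than in WT and 0 were higher (limma, adjusted p under 0.05), against 6.07% and 4.19% of all genes. They were Psma1, Psma2, Psma6, Psma7, Psmb4, Psmb5, Psmb7, Psmc1, Psmd8 and Psme3. The median over the 45 was -0.34, that of all genes 0.02, and 37 of the 45 lay below 0, against 47.7% of all genes. At an unadjusted p under 0.05, 19 members differed, against 22.4% of all genes. The difference takes no value from the 0 h arrays, although they enter the spread of the fit. Fitted on the heated arrays alone, 9 members and 1004 of all genes passed, and Psmb5 lost its call.

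Psmd8 again led the members that passed. On the WT arrays it stood at 0.28, -0.47 and -0.45 at 0.5, 1 and 2 h and at -0.17, -0.62, -0.39 and -0.60 at 3, 4, 6 and 8 h. On the KO arrays it stood at -0.86, -0.85 and -0.74 in the early window and at -1.07, -1.24, -1.47 and -1.22 in the late window. Every heated KO array lay below every heated WT array, which held for this member alone of the 45, against 2.13% of all genes. The difference was -0.72 ± 0.13 (1.64-fold lower, adjusted p = 0.00127), and it passed with any single array left out.

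In the core, Psma1 differed by -0.68 ± 0.15 (adjusted p = 0.00793, with no WT value at 0.5 h) and Psma2 by -0.50 ± 0.12 (adjusted p = 0.00973). Psma2 stood at -0.15, -0.18 and -0.15 in the WT early window and -0.16, -0.51, -0.46 and -0.59 in the late window, and at -0.28, -0.68 and -0.63, then -1.13, -0.85, -1.28 and -0.88 in KO. The KO array was the lower one at each of the 7 times. Psma6 (-0.45 ± 0.11, adjusted p = 0.0155) and Psma7 (-0.50 ± 0.13, adjusted p = 0.0201) passed at 0 h and again here on other arrays.

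Among the beta subunits, Psmb5 was at 0.24, -0.58 and -0.56 in the WT early window and at -0.28, -1.08, -0.55 and -0.99 in the late window. In KO it was at -0.77, -0.85 and -0.63, then at -1.17, -1.19, -1.53 and -1.40. KO was the lower at all 7 times, by little at 2 and 4 h, and the difference was -0.54 ± 0.15 (adjusted p = 0.0336). Leaving out the WT array of 0.5, 3 or 6 h or the KO array of 0.5, 1, 6 or 8 h ended its call, with adjusted p-values up to 0.0777. Psmb4, a non-catalytic subunit, differed by -0.52 ± 0.13 (adjusted p = 0.0184), and Psmb7 by -0.51 ± 0.16 (adjusted p = 0.0473), a call lost on leaving out any 1 of 12 of the 14 arrays. Psmb6 differed by -0.26 ± 0.21 and did not pass (adjusted p = 0.520). Psmb3 had the lowest difference of all members, -0.73 ± 0.26, with its WT 0.5 h array at 1.52, and did not pass (adjusted p = 0.0873).

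In the cap, Psmc1, an ATPase that helps open the gate of the core, was the other gene that passed. It stood at -0.13, -0.47 and -0.30, then -0.05, -0.61, -0.53 and -0.46 in WT, and at -0.44, -0.64 and -0.67, then -0.91, -1.01, -1.30 and -0.87 in KO. KO was the lower at every time, and the difference was -0.47 ± 0.11 (adjusted p = 0.0103). Without the KO array of 2 h it was -0.36 and did not pass (adjusted p = 0.0991). The other 13 cap subunits beside Psmd8 and Psmc1 had differences of -0.40 to 0.06. Psmd1, a large scaffold of the cap, was the 1 gene above 0. Its probes disagreed, with 0.92 for 1 that had values on 13 arrays and -0.22 for the other.

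Counted by time, 12 of the 45 members were lower in KO at all 7 heated times, against 6.55% of the 9828 genes with values at every time: Psma2, Psma3, Psma5, Psma7, Psmb4, Psmb5, Psmc1, Psmc4, Psmd4, Psmd8, Psmd11 and Psme3. Without the KO arrays of 6 and 8 h, the 2 with the lowest core mean, 3 members passed in the heated comparison (Psma2, Psmd8 and Psme3), and without both 0.5 h arrays 5 passed. With pairs matched by time as a block 6 passed. The calls over all genes in these fits are not given. As at 0 h, ribosomal proteins were lower in KO under heat, 48 of 66 with a median of -0.55, and so were 7 of 8 chaperonin subunits, with a median of -0.92. Their part was not tested.

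**Figure D2:**
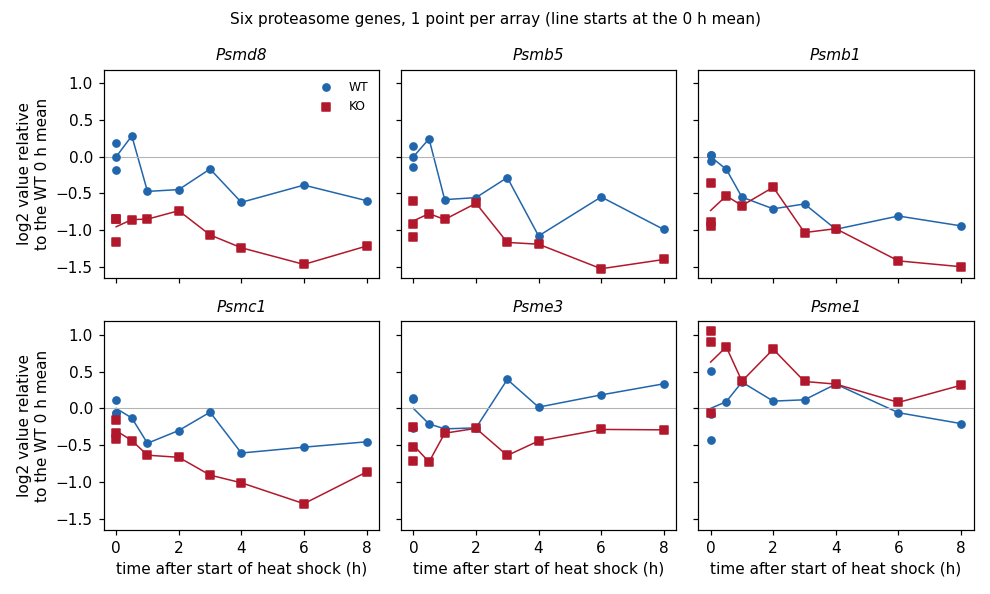
Each point is the log2 value of 1 gene on 1 array, relative to the WT mean at 0 h, against hours of heat shock (blue circles WT, red squares KO; lines start at the 0 h mean and join single arrays). Psmd8 is lower in KO on every array at matched times and Psmb5 nearly meets WT at 2 and 4 h, while for the activator gene Psme1 no heated KO array lies below the WT array of its time.

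Core and cap were compared as means over their genes on each array. Over the 14 core genes the mean was -0.36, -0.64 and -0.74 on the KO arrays at 0 h, and -0.09 to 0.10 on the WT arrays. Over the 15 cap genes it was -0.21, -0.53 and -0.49 in KO, and -0.13 to 0.20 in WT. The genotypes overlapped in neither core nor cap at 0 h. The median difference over genes was -0.63 for the core, with 5 of 14 past the threshold, and -0.32 for the cap, with 2 of 15. After heat it was -0.48 for the core, with 7 of 14, and -0.36 for the cap, with 2 of 15. By class, the medians at 0 h were -0.52 (alpha ring), -0.73 (beta ring), -0.30 (ATPase ring) and -0.57 (non-ATPase cap). After heat they were -0.45, -0.51, -0.38 and -0.34 in the same order. At 0 h the non-ATPase cap was thus lower than the alpha ring, so the order of core and cap did not hold for every class.

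Over these 14 core and 15 cap genes, and relative to the WT mean at 0 h, the core lay below the cap on every KO array and every heated WT array. Core minus cap was 0.00 ± 0.22 (SD, n = 3) in WT at 0 h, -0.13 ± 0.06 (n = 3) early and -0.10 ± 0.07 (n = 4) late. In KO it was -0.17 ± 0.07 (n = 3) at 0 h, -0.21 ± 0.05 (n = 3) early and -0.27 ± 0.05 (n = 4) late. All 10 KO arrays thus lay below 0, from -0.35 to -0.11, and so did every heated WT array, from -0.16 to -0.02. They share this 0, the mean of the 3 WT arrays at 0 h, so the signs are not independent of each other. The 3 WT arrays at 0 h ran from -0.21 to 0.22, a range that held 3 of the 10 KO arrays. The late arrays did not overlap between genotypes, from -0.16 to -0.02 in WT and from -0.35 to -0.23 in KO, and this distance was not tested. The planned score counted the inducible beta subunits as core and the assembly factors as cap, 18 genes on each side. On it core minus cap was -0.03 ± 0.09 (n = 3) in KO at 0 h and -0.02 ± 0.06 (n = 4) late, close to 0. Its core side includes Psmb11, read by 1 probe, whose mean was 1.13 in KO at 0 h and 1.86 late. The share of this gene in the score was not tested. The KO arrays then lay on both sides of 0, from -0.16 to 0.07. The late arrays overlapped on this score, from -0.04 to 0.26 in WT and from -0.09 to 0.04 in KO.

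At matched times, the core mean of KO was below that of WT by differences of -0.59 at 0.5 h, -0.30 at 1 h, -0.16 at 2 h, -0.79 at 3 h, -0.13 at 4 h, -0.69 at 6 h and -0.48 at 8 h. Those of the cap were -0.40, -0.30, -0.11, -0.49, -0.02, -0.47 and -0.40 in the same order. KO was lower at each of the 7 times in both core and cap, least at 2 and 4 h, and the core difference was the larger one at each time, at 1 h in the third decimal only. Each time has 1 array per genotype, so these differences have no replicate check.

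**Figure D3:**
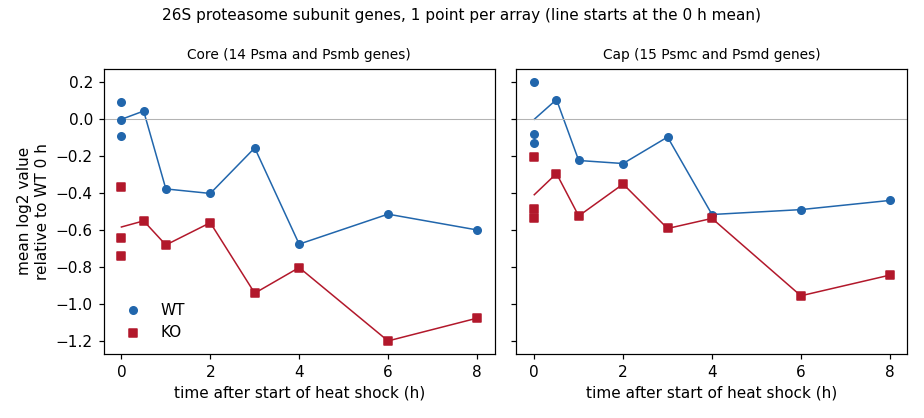
Each point is the mean over 14 core genes (left) or 15 cap genes (right) on 1 array, as log2 relative to the WT mean at 0 h, against hours of heat shock (blue circles WT, red squares KO; lines start at the 0 h mean). KO lies below WT at all 7 times in both panels, and the KO arrays of 6 and 8 h are the lowest.

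Late in the heat shock of WT, 28 of the 29 core and cap genes had values below those at 0 h. The core mean was -0.15, -0.68, -0.51 and -0.60 at 3, 4, 6 and 8 h (-0.49 ± 0.23, SD, n = 4) and the cap mean -0.10, -0.52, -0.49 and -0.44 (-0.38 ± 0.20, n = 4), so the 3 h array lay nearest to the 0 h range. Against 0 h, 4 of the 45 members were lower and 0 were higher (limma, adjusted p under 0.05), against 3.67% and 3.6% of all genes, and 22 passed an unadjusted p under 0.05, against 24.5% of all genes in either direction. In 12 members every late array lay below every 0 h array, against 10.6% of all genes. Of the 45, 35 lay below 0 and the median was -0.39, against 51.8% and -0.02 for all genes.

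Psmb1 fell most surely in WT: from 0.03, -0.05 and 0.03 at 0 h to -0.64, -0.99, -0.81 and -0.94 at 3, 4, 6 and 8 h, a change of -0.84 ± 0.18 (1.80-fold, adjusted p = 0.0109) that passed without any single array. Psmb2 fell by 0.78 ± 0.19 (adjusted p = 0.0215), to -0.37, -1.004, -0.81 and -0.94. In both genes the 3 h array was the highest of the late window and still below all 0 h arrays. Psmb1 and Psmb2 also passed between genotypes at 0 h, and both comparisons use the same WT arrays at 0 h. Their fall in WT is thus not independent of their genotype difference at 0 h. Psmg2, an assembly chaperone of the core, fell by 0.63 ± 0.18 (adjusted p = 0.0397), and Psme3ip1, which is no subunit, by 0.69 ± 0.19 (adjusted p = 0.0416). Psmd1 had the lowest change, -0.92 ± 0.36, with arrays from -1.85 to -0.14, and did not pass (adjusted p = 0.127). Its probes disagreed in size: 1 with values on 13 arrays gave -2.42, and the other, with values on all 20, gave -0.53. The count depends on single arrays: without the WT 3 h array 9 members passed, without the 4 h or the 8 h array 1 (Psmb1), and without the second 0 h array 2. Psmb2 lost its call without the third 0 h, the 4 h or the 8 h array, Psmg2 without 6 and Psme3ip1 without 5 of the 7 arrays.

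In KO the late arrays lay below the 0 h arrays, which were themselves below those of WT. The core mean was -0.94, -0.80, -1.20 and -1.08 at 3, 4, 6 and 8 h (-1.01 ± 0.17, SD, n = 4), against -0.58 ± 0.19 (n = 3) at 0 h, and the cap mean was -0.73 ± 0.20 (n = 4) against -0.41 ± 0.18 (n = 3). Against the KO 0 h arrays, 2 members were lower and 0 higher (limma, adjusted p under 0.05), against 6.8% and 3.86% of all genes. An unadjusted p under 0.05 was reached by 13 members, against 25.2% of all genes. Every late array lay below every 0 h array in 15 members, against 16.3%, and 39 of the 45 changes lay below 0, against 51.9%. The 2 were Psmc1, at -0.15, -0.42 and -0.34 at 0 h and -0.91, -1.01, -1.30 and -0.87 later (-0.72 ± 0.16, adjusted p = 0.00726), and Psma2 (-0.67 ± 0.17, adjusted p = 0.0156). Their late arrays lay below all KO arrays at 0 h. These changes share the KO 0 h arrays with the genotype difference at 0 h, so the values are not independent of each other. Psma2 did not pass without the 6 h array or the first 0 h array (adjusted p up to 0.0951), and without both the 6 and 8 h arrays neither gene passed.

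In the early window 0 members passed in either genotype by limma, against 0.0376% of all genes in WT and 0 in KO, with 6 and 1 members at an unadjusted p under 0.05 (11.3% and 7.46% of all genes). In WT 9 members and in KO 5 had every early array below every 0 h array, against 8.24% and 9.2% of all genes. The changes lay below 0 in 33 and 23 members, against 50.2% and 56.2%. Psma6 had the lowest WT change, -0.68 ± 0.17 (adjusted p = 0.203), with arrays at -0.79, -0.71 and -0.52, and Psmb2 followed at -0.59 ± 0.20 (adjusted p = 0.312). The WT arrays were not alike: the core mean was 0.04 at 0.5 h and -0.38 and -0.40 at 1 and 2 h. In KO the early changes ran from -0.53 ± 0.26 for Psmg3 and -0.51 ± 0.27 for Psmb9 to 0.30 ± 0.64 for Psmg4 and 0.33 ± 0.39 for Psmb3, and their adjusted p-values were 0.671 or more.

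The responses of the genotypes were set against each other by the interaction of genotype and heat. No member's response differed by limma, early or late, against 0 and 0.0941% of all genes, and 6 early and 0 late had an unadjusted p under 0.05 (8.37% and 8.72% of all genes). The differences lay below 0 in 25 members early and 21 late, against 45.6% and 47.6% of all genes. WT minus KO, the late response of Psmb1 was -0.35 (95% interval -0.88 to 0.19), that of Psmc1 was 0.31 (-0.16 to 0.78) and that of Psma2 was 0.24 (-0.26 to 0.73). These intervals leave room for a difference of either sign. The 2 lowest late differences were those of Psmd1 at -0.69 ± 0.51, whose probes disagreed, and Psmd3 at -0.60 ± 0.53. The 3 highest were those of Psmg3 at 0.62 ± 0.34, Psmg4 at 0.70 ± 0.85 and Psmb11 at 0.90 ± 0.68.

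No inducible beta subunit passed between genotypes. At 0 h the differences were 0.24 ± 0.17 for Psmb8 (adjusted p = 0.460), 0.10 ± 0.27 for Psmb9 (adjusted p = 0.890) and -0.45 ± 0.24 for Psmb10 (adjusted p = 0.301), and after heat they were 0.09, -0.34 and 0.00. Psmb8, the counterpart of Psmb5, stood at -0.06, 0.24 and -0.18 in WT and 0.15, 0.28 and 0.30 in KO, and these ranges overlapped. Its 7 probes that passed the filter all gave differences above 0, while another, left out for missing values, gave -1.84. A probe of Psmb9 left out in the same way gave 1.48. Psmb11, the thymus form, had the highest changes with heat in WT, 1.69 ± 0.54 early (adjusted p = 0.283) and 1.63 ± 0.51 late (adjusted p = 0.0641), and 1.13 ± 0.54 between genotypes at 0 h (adjusted p = 0.242). It rests on 1 probe with no value on the third WT array at 0 h, and none of these passed.

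The activators went in different directions. Psme1 and Psme2, which form the interferon-inducible activator of the cytoplasm, had the highest differences, KO minus WT, of all members after heat, 0.34 ± 0.18 (adjusted p = 0.271) and 0.17 ± 0.11 (adjusted p = 0.380). At 0 h Psme2 stood at 0.13, -0.25 and 0.12 in WT and at 0.47, 0.42 and 0.33 in KO (0.41 ± 0.17, adjusted p = 0.162). Psme1 stood at -0.43, 0.51 and -0.08 in WT and at 1.06, -0.07 and 0.91 in KO (0.63 ± 0.27, adjusted p = 0.184). The arrays of Psme2 did not overlap and those of Psme1 did, and its probes disagreed, from -0.18 to 1.35. With 1 probe per gene Psme2 passed at 0.63 (adjusted p = 0.0479) and Psme1 was at -0.18, whereas with the median of the probes Psme1 passed at 0.81 (adjusted p = 0.0336).

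Psme3, the nuclear activator, was lower in KO under heat, by -0.45 ± 0.11 (adjusted p = 0.0164). It stood at -0.21, -0.28 and -0.27, then 0.39, 0.02, 0.18 and 0.34 in WT, and at -0.73, -0.34 and -0.27, then -0.64, -0.44, -0.29 and -0.29 in KO. Late WT arrays were thus all above 0 and late KO arrays all below, whereas the late WT means of core and cap lay below 0. Its 4 probes ran from -1.59 to 0.45 at 0 h, where the difference was -0.50 ± 0.17 (adjusted p = 0.0994). It passed at 0 h with only the probes that had a value on all arrays, at -0.97 (adjusted p = 0.00445), and with 1 probe per gene, at -1.59 (adjusted p = 0.000695). Its late response, WT minus KO, was 0.15 ± 0.23 and did not pass (adjusted p = 0.898).

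Of the 7 assembly factors, none passed between genotypes. The chaperones of the core had differences at 0 h of 0.47 ± 0.22 (Psmg1), -0.15 ± 0.19 (Psmg2), 0.34 ± 0.26 (Psmg3) and 0.05 ± 0.64 (Psmg4), whose 2 probes gave -2.38 and 2.10. Psmg3 had the highest WT late change after Psmb11, 0.69 ± 0.24 (adjusted p = 0.0945), with arrays at 1.39, 0.67, 0.04 and 0.65. The chaperones of the cap had -0.55 ± 0.17 (Psmd5, adjusted p = 0.0698), 0.04 ± 0.18 (Psmd9) and 0.01 ± 0.18 (Psmd10). The 14 proteasome genes outside the 29 core and cap genes, inducible subunits and activators included, had a median of 0.07 at 0 h. Of these 4 lay below 0 and 0 passed the threshold, against a median of -0.52 and 7 past it among the 29. Both medians are descriptions with no test between them.

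**Figure D4:**
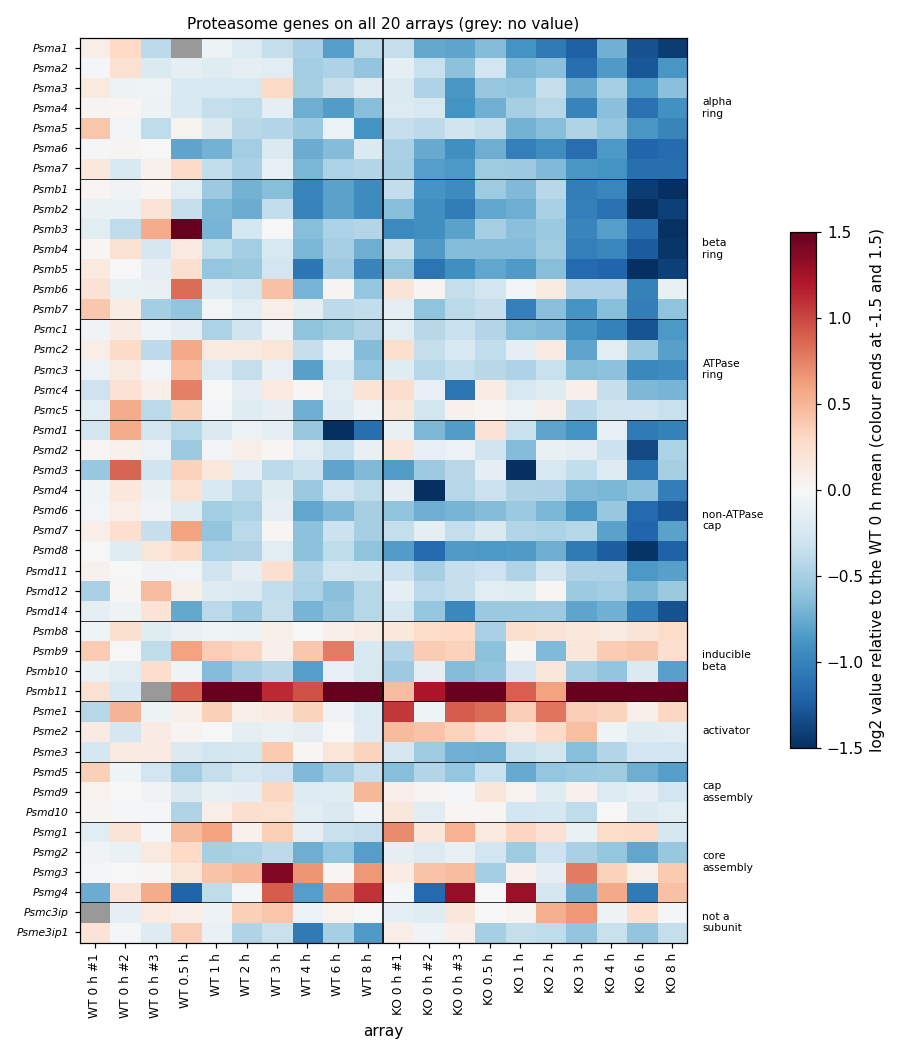
Each row is 1 of the 45 genes and each column 1 of the 20 arrays, coloured by the log2 value relative to the WT mean at 0 h (blue lower, red higher, grey no value, colours end at -1.5 and 1.5). The rows of the alpha and beta rings are mostly blue on the KO arrays, where their mean is lowest at 6 h (-1.20), while the inducible beta subunits, activators and core assembly factors hold mixed colours.

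Of 51 other genes of the proteasome pathway listed, 30 were measured, and 0 passed between genotypes at 0 h (median 0.05). After heat 4 were lower and 1 was higher in KO (limma, adjusted p under 0.05), against 6.07% and 4.19% of all genes. The median over the 30 was -0.05. Pomp, the factor that joins the beta rings and is cut up on maturation, differed by -0.71 ± 0.13 (adjusted p = 0.00171). It stood at -0.40, -0.66 and -0.42, then -0.11, 0.55, -0.33 and -0.15 in WT, and at -0.42, -0.72 and -0.65, then -1.11, -0.94, -1.28 and -1.37 in KO, so the early windows overlapped and the late ones did not. The shuttle factor Ubqln1 differed by -0.61 ± 0.13 (adjusted p = 0.00585), the unfoldase Vcp by -0.35 ± 0.10 (adjusted p = 0.0290) and Zfand2a, a stress-induced partner of the cap, by -0.59 ± 0.17 (adjusted p = 0.0363), while Ubqln2 was higher by 0.52 ± 0.12 (adjusted p = 0.0109). Leaving out single heated arrays ended the call of Vcp in 5 of 14 fits (adjusted p up to 0.0683) and that of Zfand2a in 9 (up to 0.0850).

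Zfand2a was the gene of this list that rose in WT. It stood at 0.28, 0.0030 and -0.28 at 0 h and at 1.72, 0.83, 1.42 and 1.20 in the late window, a change of 1.29 ± 0.25 (adjusted p = 0.00618), and at 0.22 ± 0.25 in KO (adjusted p = 0.635). The difference of these responses was 1.07 ± 0.35 and did not pass (adjusted p = 0.421). Ubqln2 fell by 0.79 ± 0.18 in WT late (adjusted p = 0.0134). In KO late, Vcp fell by 0.63 ± 0.14 (adjusted p = 0.00777) and Pomp by 0.63 ± 0.19 (adjusted p = 0.0408). Leaving out single arrays ended the call of Vcp in 1 of 7 fits (adjusted p = 0.0555) and that of Pomp in 5 (up to 0.171). Nfe2l1, the transcription factor that raises proteasome genes when the proteasome is inhibited, did not pass between genotypes, at 0.11 ± 0.18 at 0 h (adjusted p = 0.786) and 0.18 ± 0.12 after heat (adjusted p = 0.388). Nor did Nfe2l2, which binds antioxidant response elements, at 0.09 ± 0.28 and 0.29 ± 0.18, or Uchl5, a deubiquitinase of the cap, at -0.41 ± 0.20 and -0.17 ± 0.13.

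Of 18 listed genes of antigen presentation and interferon response, which share control with Psmb8, Psmb9 and Psmb10, 11 were measured. At 0 h 0 passed, with a median of 0.32. After heat 3 were higher and 0 lower in KO by limma, against 4.19% and 6.07% of all genes. The interferon regulator Irf1 was higher by 0.72 ± 0.13 (adjusted p = 0.00170). The class I light chain B2m was higher by 0.43 ± 0.13 (adjusted p = 0.0460) and the peptide loading factor Tapbp by 0.43 ± 0.13 (adjusted p = 0.04996). The last 2 calls were each lost on leaving out any 1 of 12 of the 14 heated arrays, with adjusted p-values up to 0.103 and 0.110. The interferon signalling factor Irf9 rose late in WT by 1.35 ± 0.27 (adjusted p = 0.00809) and in KO by 1.23 ± 0.27 (adjusted p = 0.00777), and Tapbp in WT by 0.76 ± 0.19 (adjusted p = 0.0261), a call lost without any 1 of 4 of the 7 arrays (adjusted p up to 0.0731).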

How the data were processed

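The values of the 20 arrays, as deposited by the authors, were taken as log2 ratios of Cy5 sample to Cy3 pool, the dyes being those of the labels. The base is not stated, and natural logarithms would make the folds too small. The sources used here do not give how background and dye bias were corrected, and no spot intensities were read. Probes were named by the platform's annotation, and only those listing 1 gene were used; all 45 members were found in RefSeq by gene identifier under the same symbol.

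The median of each array was subtracted. A probe had to have 2 or more values in all 6 groups, which kept 40453 of 42624 probes, 20881 of them with 1 gene. A gene's value is the mean of its probes, each after subtraction of that probe's mean. Group means were estimated with limma (version 3.58.1, R 4.3.3, lmFit and eBayes, 3.36 prior degrees of freedom) from the 20 arrays together, with two-sided tests and Benjamini-Hochberg adjustment over all 10625 genes of each of 8 contrasts at 0.05. KO minus WT after heat weights the early window by 3 and the late one by 4 arrays. Errors of log2 differences are SEs of this fit. The procedure was tested on simulated data with 200 shifted genes. A log2 shift of 0.5 was recovered in 0% of them at 0 h, 14% after heat and 1% in WT late. In KO late and in the late response difference it was recovered in 0%. For a shift of 1 the shares were 39%, 80%, 55%, 50.5% and 13% in the same order. A gene that did not pass may thus still differ by such amounts.

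The members, classes and gene lists were chosen with earlier results of these data known, so no list was tested. Named were members past the threshold in any contrast, the 2 highest and 2 lowest of each contrast, the cutting subunits with their inducible counterparts, up to 4 genes per contrast of the pathway and antigen lists, and 7 pathway genes by name where measured, of which Usp14 and Adrm1 had no value. Other genes were named after their values were seen. Alternatives for centring, scaling, filters, probes, arrays and blocking were run. Promoters came from the RefSeq table for GRCm38.p6, which held 38 of the 45.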

Additional observations from a re-analysis of the deposited data

Results flagged for a closer look

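In the KO late window, Psma6 at 4 h stood at -0.86 while the other arrays of the window lay from -1.19 to -1.14, a gap large for 4 arrays. It was the only one of 90 such checks set apart, where chance sets apart about 1 in 20.

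For 6 members every early array moved one way in WT and the other way in KO. The late window was checked too, and only early responses were set apart. Only members were checked, so the share of all genes is not known and the count cannot be read as a trait of the members. WT minus KO, the early responses differed by -0.67 for Psmb1, -0.79 for Psmb2, 0.94 for Psmb9, -0.62 for Psmd14, 0.62 for Psmg1 and 0.90 for Psmg3. The interaction test of limma gave adjusted p-values of 0.582 to 0.607 for these 6, so none of the differences passed. All use the 0 h arrays of both genotypes.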

How the results depend on the processing

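The lower KO values of the members kept their sign under every setting of centring, filter and probe that was run, in the median at 0 h and after heat, while the counts of members that passed moved. Without centring, the median of all genes shifted to 0.16 at 0 h, 0.19 in WT early and 0.31 in the early response difference, and the member medians were -0.23, 0.029 and 0.23, each below that of all genes. Quantile normalization gave 3 calls at 0 h (median -0.15), 1 in WT late and 4 in KO late. Scaling of array width gave 4 at 0 h (median -0.20) and 1 in WT late (median -0.22). With 1 probe per gene WT late had 2, and Psme1 at 0 h was at -0.18. With only the contrasted arrays 0 passed at 0 h (109 of all genes passed), 1 in WT late (164 of all genes) and 1 in KO late (985 of all genes). In their deviations from the group means, WT and KO arrays sharing a number at 0 h correlated with r of -0.012 to 0.012. Those with different numbers gave -0.008 to 0.015, so no pairing by number showed in these values. Whether arrays of a number were handled together is not stated. A replicate block (0 h arrays paired by number, heated arrays by time) gave 2 calls at 0 h and 6 after heat.

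In this section core minus cap takes 18 genes on each side, with the inducible beta subunits as core and the assembly factors as cap. Without these, on the 14 core and 15 cap genes that lead the results above, it moved to -0.099 in KO late. In the early response difference it moved to -0.096. With medians over the 18 genes of each side it was -0.23 at 0 h, 0.047 in KO early, and -0.17 and -0.15 in the early and late response differences. Added after seeing the data, medians of probes gave 5 calls in KO late. Leaving out both 0.5 h arrays gave 5 after heat, with medians of -0.28 in WT early and -0.21 in the early response difference, and leaving out the KO arrays of 6 and 8 h gave 3 after heat, 0 in KO late and a late response median of -0.13.

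With each array left out in turn, calls ranged from 1 to 8 at 0 h, 8 to 12 after heat and 1 to 9 in WT late. They ranged from 1 to 3 in KO late and were 0 in both early windows and both response differences. The calls over all genes in these fits are not given, so the ranges cannot be read as a trait of the members. WT late had 2 without the second WT array at 0 h, 1 without the 4 h or the 8 h array and 9 without the 3 h array. KO late had 1 without the first KO array at 0 h or without the 6 h array. The medians ranged from -0.43 to -0.25 at 0 h, -0.36 to -0.27 after heat, -0.23 to -0.09 in WT early, -0.48 to -0.25 in WT late, -0.10 to 0.08 in KO early, -0.43 to -0.25 in KO late, -0.25 to 0.040 in the early and -0.11 to 0.10 in the late response difference. Core minus cap over 18 genes on each side ranged from -0.19 to -0.02 at 0 h and -0.10 to -0.03 after heat. It ranged from -0.13 to 0.04 in WT early, -0.16 to 0.040 in WT late, -0.09 to 0.01 in KO early and -0.03 to 0.06 in KO late. For the response differences it ranged from -0.06 to 0.09 early and -0.13 to 0.048 late. The score on 14 core and 15 cap genes was not run with arrays left out. Where counts moved with scaling or blocking, the cause was not tested.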
